A study of Mus musculus with 6 samples.

Results

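The 50 rows described here are the well-counted part of the predicted miRNAs in a small RNA table of mouse peritubular myoid cells, the contractile cells that wrap the seminiferous tubules of the testis. A row was taken when the authors typed it as miRNA, gave it a number in place of a miRBase name, and counted at least 100 tags for it in at least 1 of the 6 libraries. Of the 61628 rows, 230 were predicted miRNAs, and 50 of these met the threshold. Of the other 180, 50 were at 0 in every library and 130 reached between 10 and 97 tags. The rows were thus chosen by their tag counts, so their levels are given as a description. The libraries were 3 from cells exposed to 50 nM endothelin-1 (ET1) for 5 min and 3 from untreated cells. All were primary cells of C57BL/6J mice grown in DMEM/F12 medium with fetal bovine serum and, per the labels, treated in DMEM/F12. ET1 is a peptide that makes smooth muscle contract.

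ET1 libraries held 18127265, 19414045 and 19493731 tags and untreated libraries 20895432, 18972157 and 20700178. Known miRNAs made up 22.6% to 25.5% of an ET1 library and 30.1% to 45.6% of an untreated library, and rRNA fragments 7.12% to 11.02% of an ET1 library and 3.22% to 5.63% of an untreated library. The part of these shares in any value below was not tested. Levels are given as RPM, the tags of a row per 1000000 tags of the library. The summed smooth muscle miRNAs (miR-143-3p and both arms of miR-145a, all 3 detected) stood at 3160 to 4540 RPM in ET1 libraries and at 5865 to 10327 in untreated libraries. The groups overlapped for miR-145a-5p, at 610 to 788 RPM in ET1 libraries and 718 to 1164 in untreated libraries. They did not overlap for miR-143-3p and miR-145a-3p. The lists for other cell types were detected in full too. Endothelial miRNAs (2) summed to 29.5 to 47.5 RPM in ET1 libraries and 319 to 682 in untreated libraries, and leukocyte and red cell miRNAs (3) to 22.2 to 81.4 RPM in ET1 libraries and 120 to 274 in untreated libraries. In the leukocyte and red cell list only miR-150-5p was without overlap, at 5.51 to 8.77 RPM in ET1 libraries and 79.1 to 108 in untreated libraries. The groups overlapped for miR-223-3p and for the red cell miRNA miR-451a. Sertoli and germ cell miRNAs (4) summed to 219 to 514 RPM in ET1 libraries and 280 to 524 in untreated libraries, and epithelial miRNAs (2) to 9.49 to 16.1 RPM in ET1 libraries and 14.7 to 58.2 in untreated libraries. In the Sertoli and germ cell list miR-449a-5p went the other way, at 20.4 to 106 RPM in ET1 libraries and 10.1 to 19.0 in untreated libraries. The groups overlapped for miR-34c-5p and both arms of miR-202. The part of these markers in the results was not tested either. These are bulk libraries, in which fewer cells of a type and less RNA per cell cannot be told apart. Untreated library 1 stood apart for several of the predicted rows, and fold changes of single rows that it moves by over 1.5 times are also given without it.

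MiRNAs are short RNAs that Drosha and Dicer cut from hairpin precursors and that guide Argonaute proteins to mRNAs. Programs that predict miRNAs look for stacks of short tags on stretches of the genome that can fold into a hairpin. Small nucleolar RNAs (snoRNAs), which guide the modification and cleavage of ribosomal RNA, and tRNAs also form stable stems, and both are known to give rise to short fragments in cells. U3, a box C/D snoRNA, is needed for the first cleavages of the ribosomal RNA precursor.

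The deposited table gave a locus for every predicted row, on the mm10 build named in the submitters' processing notes, but no mature sequence. For 19 of the 50 loci the sequence could be read from GENCODE M21 transcripts of GRCm38, the same assembly. The locus with the most tags, novel_mir40, covered the 3′ part of the U3 snoRNA gene Rnu3b4. It is shown with novel_mir59, which covered the same part of Gm22865, annotated by RefSeq as a U3 pseudogene. Capitals mark the positions where the sequences differ.
novel_mir40: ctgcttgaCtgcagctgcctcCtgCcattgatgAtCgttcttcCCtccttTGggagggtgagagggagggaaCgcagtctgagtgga
novel_mir59: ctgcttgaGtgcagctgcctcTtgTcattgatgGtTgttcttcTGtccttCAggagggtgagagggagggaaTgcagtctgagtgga
The loci are chr11:87462414-87462500 and chr2:121004216-121004302, both on the plus strand. They were 87 bases long and identical at 77 of 87 positions (88.5%). The novel_mir40 stretch occurred letter for letter in 4 annotated genes, Rnu3b1, Rnu3b2, Rnu3b3 and Rnu3b4, so its tags cannot be assigned to a single U3 copy. The novel_mir59 stretch was found in Gm22865 alone among annotated transcripts.

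Loci in 3 further snoRNA genes, which too stop within 3 bases of the 3′ end of the snoRNA gene, are shown as examples. The loci novel_mir49 in Gm25419 and novel_mir97 in Snora81 also do so and are not shown. Snora81 is an H/ACA snoRNA gene, but the locus of novel_mir97 did not end in ACA. Capitals mark the last bases of the locus where these are ACA, the triplet near the 3′ end of H/ACA snoRNAs, the class that guides pseudouridylation.
novel_mir90: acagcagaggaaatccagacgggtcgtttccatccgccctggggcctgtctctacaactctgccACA
novel_mir176: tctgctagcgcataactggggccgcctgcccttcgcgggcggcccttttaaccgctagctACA
novel_mir71: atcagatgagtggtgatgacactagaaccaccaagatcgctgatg
The first lies at chr4:123293213-123293279 in Gm22154, within an intron of Pabpc4. The second lies at chr11:106501312-106501374 in Gm22711, and the third at chr2:26911288-26911332 in Gm23969, within an intron of Rpl7a. All 3 are on the plus strand. Of the 19 readable loci 2 (10.5%) ended in ACA, and both were these snoRNA loci.

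In all, 11 of the 50 loci overlapped a gene for a small structured RNA. These were 8 snoRNA genes or snoRNA pseudogenes, the RNA of RNase MRP (Rmrp, an endonuclease that processes ribosomal RNA) and the tRNA genes n-TRacg4 and n-TWcca6. Among the 180 predicted rows under the threshold, 5 did (2.78%, against 22% of the 50). A further 12 of the 50 lay in an exon on the same strand, 4 in an intron on the same strand, 6 on the opposite strand of a gene and 17 outside every GENCODE gene. Under the threshold, same-strand exons held 89 rows (49.4%, against 24% of the 50) and 40 lay outside every gene (22.2%, against 34%). None of the 50 overlapped a RefSeq miRNA hairpin, and no mature RefSeq miRNA occurred inside any of the 19 readable loci. In the 9 snoRNA and RNase MRP genes, whose strand was known, 7 loci ended within 3 bases of the 3′ end of the gene. The exceptions were novel_mir232, which ended 89 bases before the 3′ end of Rmrp, and novel_mir92, which ran 57 bases past the end of Gm24455 into the Taf1d transcript. The strand of the tRNA genes was not in the annotation used. As the annotation names another RNA class for these 11 loci, the 50 are called predicted rows here, not miRNAs.

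**Figure D1:**
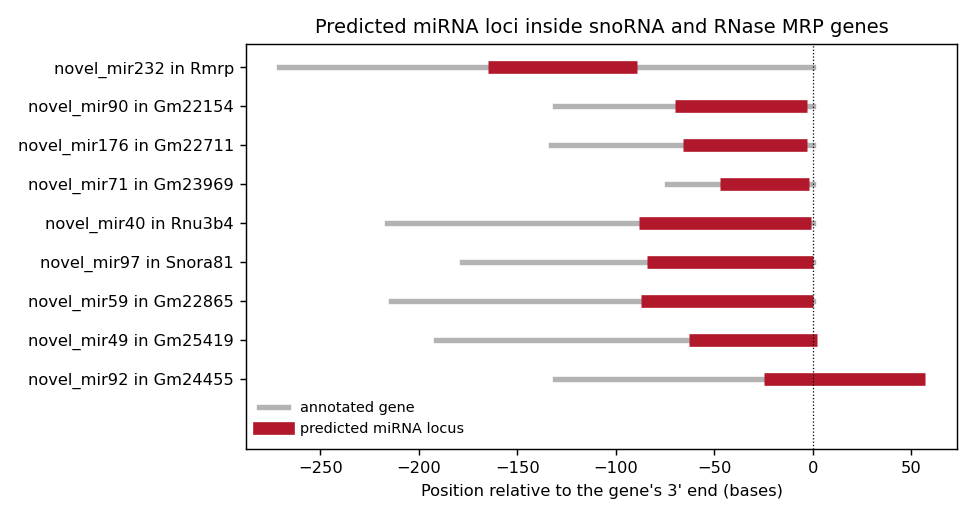
Predicted miRNA loci (red) drawn on the 9 snoRNA and RNase MRP genes they overlap on the same strand (grey), aligned at the 3′ end of each gene, with the position in bases on the x axis. In 7 of the 9 genes the red bar ends within 3 bases of the dotted line that marks the gene's 3′ end.

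A minimum free energy was computed for the 19 readable loci with RNAfold. The median was -0.35 kcal/mol per base, within a range of -0.64 to -0.18. Over 997 RefSeq mouse hairpins the median was -0.41, and 3 of the 19 loci were more weakly folded than the 95th percentile of these hairpins. The locus of novel_mir40 had -38.4 kcal/mol over its 87 bases, or -0.44 per base, with 69.0% of its bases paired. This lay between the 5th and the 95th percentile of the RefSeq hairpins, -0.60 and -0.26.

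A single row held nearly all tags of the 50. The U3 locus novel_mir40 took 90.5%, 94.3% and 90.5% of their tags in ET1 libraries and 79.7%, 93.9% and 95.5% in untreated libraries. Its level was 9517, 15513 and 11193 RPM in ET1 libraries, against 7956, 10478 and 13440 in untreated libraries. The groups overlapped. Of the known miRNA rows, 4 had a higher mean over the 6 libraries, while 86 lay above the next predicted row, novel_mir1, whose mean was 50.9 times lower than that of novel_mir40. The second place rested on untreated library 1. Over the other 5 libraries novel_mir1, novel_mir161 and novel_mir71 averaged 79.8, 80.1 and 80.3 RPM, 116 known miRNA rows lay above the second row, and novel_mir40 was 150-fold higher than it. The U3 pseudogene locus novel_mir59 held 3.97, 9.74 and 5.13 RPM in ET1 libraries and 2.58, 5.75 and 6.47 in untreated libraries, far below novel_mir40 in every library. The Rfam row for U3, counted separately by the authors, held 79.7, 29.3 and 202 RPM in ET1 libraries and 36.4, 35.6 and 24.3 in untreated libraries. All 11 loci in small structured RNA genes together held 94.2% ± 1.81 of the tags of the 50 rows in ET1 libraries and 94.9% ± 2.69 in untreated libraries (SD, n = 3 each).

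The other 49 rows were low, with a sum of 1003, 936 and 1180 RPM in ET1 libraries and 2024, 685 and 634 in untreated libraries. Over the 6 libraries the median of the 50 mean levels was 9.44 RPM. A mean under 10 RPM was found in 28 of the 50 rows, and a mean of at least 100 RPM in 3, novel_mir40, novel_mir1 and novel_mir161. Without untreated library 1 these counts were 28 and 1, the single row being novel_mir40. The 5 rows with the most tags, novel_mir40, novel_mir1, novel_mir161, novel_mir71 and novel_mir113, together took 95.1% ± 1.86 of these tags in ET1 and 95.2% ± 1.51 in untreated libraries (SD, n = 3 each).

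**Figure D2:**
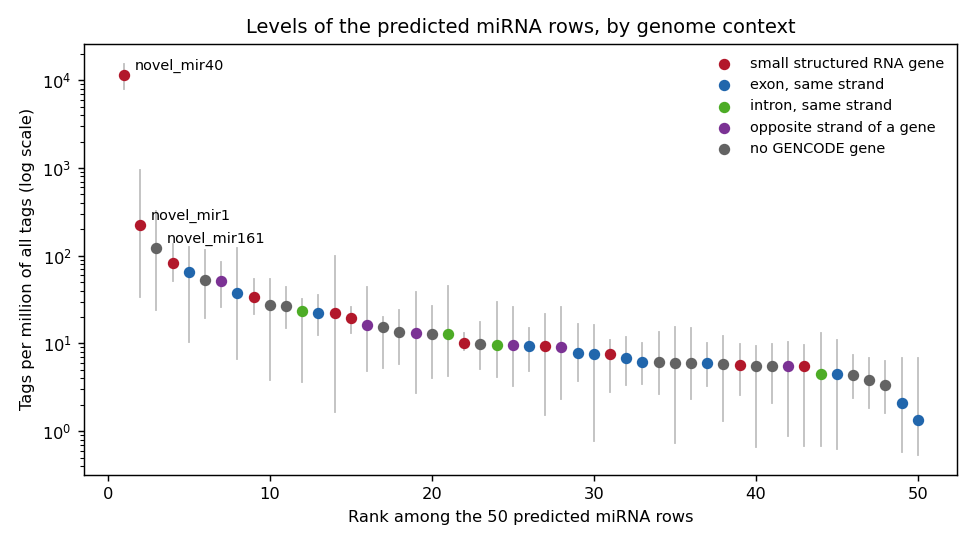
Mean level over the 6 libraries of each of the 50 predicted rows (points, log scale, RPM), ranked and coloured by genome context, with grey lines from the lowest non-zero to the highest library. The novel_mir40 row lies 50.9 times above the second row, or 150 times above it without untreated library 1, and 28 rows lie under 10 RPM in both cases.

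As a share of all tags the 50 rows summed to 1.05%, 1.64% and 1.24% in ET1 libraries and to 0.998%, 1.12% and 1.41% in untreated libraries. The groups overlapped, with means of 1.31% ± 0.303 and 1.17% ± 0.211 (SD, n = 3 each). The difference of 0.14 percentage points was smaller than either SD, and it was -0.029 without ET1 library 2. Counted among miRNA tags only, known and predicted, the rows made up 51674 ± 14605 of every 1000000 tags in ET1 and 31179 ± 11627 in untreated libraries (SD, n = 3 each). ET1 libraries had 39560, 67892 and 47571, against 25057, 23892 and 44588 in untreated libraries, so the groups overlapped between ET1 library 1 and untreated library 3. The known miRNAs, which dominate that denominator, took a smaller share of all tags in every ET1 library than in any untreated library. No test is given for these sums, since the rows were chosen with results of these data known.

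Behind novel_mir40 came the tRNA locus novel_mir1 (chr13:23500524-23500594, minus strand, over n-TRacg4, a gene for an arginine tRNA). It stood at 197, 59.2 and 45.5 RPM in ET1 libraries and at 940, 63.2 and 33.8 in untreated libraries. Untreated library 1 lay far above the other 5 libraries. Its log2 fold change of ET1 over untreated was -2.11 (SE 1.28), and 0.82 without that library. The second tRNA locus, novel_mir228 (chr11:69063547-69063587, minus strand), overlapped n-TWcca6, a tryptophan tRNA gene, by 20 of its 41 bases. It stood at 16.8, 12.4 and 1.64 RPM in ET1 libraries and at 99.5, 2.21 and 0 in untreated libraries. In untreated library 3 a count of 0 allows up to 0.145 RPM, a limit of 3 counts that covers counting error only. Its log2 fold change was -1.98 (SE 2.04), and 3.02 without untreated library 1. The Rfam tRNA row was lowest in that library. It stood at 374, 241 and 323 RPM in ET1 libraries and at 217, 443 and 297 in untreated libraries.

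The next rows by level had different contexts. The row novel_mir161 (chr2:28495932-28495983, plus strand) lay outside GENCODE genes, 934 bases from the start of Gbgt1. It stood at 129, 145 and 67.6 RPM in ET1 libraries and at 325, 24.2 and 34.6 in untreated libraries. Untreated library 1 was again the highest, and the log2 fold change of -0.39 (SE 1.01) became 1.87 without it. The snoRNA row novel_mir71 stood at 137, 51.6 and 68.6 RPM in ET1 libraries and at 89.8, 56.8 and 87.5 in untreated libraries, with overlapping groups. The Rfam row of SNORD24, a box C/D snoRNA encoded in RPL7A in human, stood at 106, 60.1 and 102 RPM in ET1 libraries and at 81.5, 63.8 and 98.0 in untreated libraries. The H/ACA row novel_mir90 stood at 23.4, 53.6 and 33.7 RPM in ET1 libraries and at 21.8, 41.0 and 28.9 in untreated libraries, again with overlap. The other H/ACA row shown, novel_mir176, stood at 8.61, 9.01 and 9.85 RPM in ET1 libraries and at 11.96, 13.1 and 8.41 in untreated libraries.

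The remaining rows of the 10 with most tags were novel_mir113, novel_mir50, novel_mir105, novel_mir206 and novel_mir4. The row novel_mir105 (chr1:153540343-153540429, plus strand) lay opposite an intron of Npl, the N-acetylneuraminate lyase gene. It stood at 37.8, 54.8 and 85.1 RPM in ET1 libraries and at 71.5, 31.6 and 26.1 in untreated libraries. The row novel_mir4 (chr3:62159409-62159484, plus strand), outside every gene, stood at 24.4, 34.9 and 54.8 RPM in ET1 libraries and at 33.0, 3.80 and 13.1 in untreated libraries. In both of these rows untreated library 1 lay within the ET1 range, and the log2 fold changes were 0.24 (SE 0.57) for novel_mir105 and 0.99 (SE 0.79) for novel_mir4. Without untreated library 1 they were 0.87 and 2.06. The other 3 rows are described with the comparison of the groups.

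**Figure D3:**
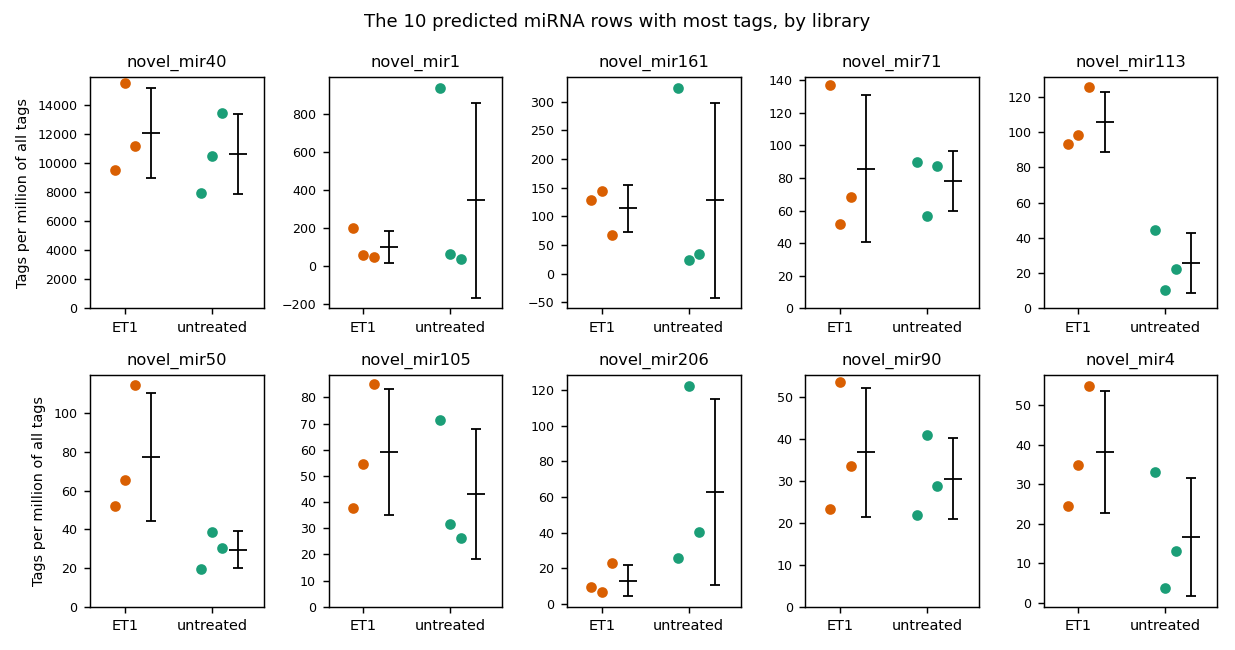
RPM in each library (points, linear scale) for the 10 predicted rows with the most tags, ET1 libraries on the left and untreated libraries on the right of each panel, with the mean and SD of 3 libraries in black. Untreated library 1 is the high point for novel_mir1 and novel_mir161, and the groups do not overlap for novel_mir113, novel_mir50 and novel_mir206.

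Replicates of the predicted rows spread more widely than those of known miRNAs. The median coefficient of variation (CV, the SD as a percent of the mean over 3 libraries) was 48.4% in ET1 and 42.4% in untreated libraries over the 50 rows. Over the 399 known miRNA rows that also reached 100 tags in a library it was 33.4% and 35.1%. Over the 313 of these within the level range of the 49 lower predicted rows it was 35.6% and 36.9%, against 48.6% and 42.8% for those 49 rows. These medians are descriptions, as rows of the same library share that library. The steadiest rows were novel_mir176 (CV 6.92% in ET1 and 21.9% in untreated libraries), novel_mir93 (26.03% and 12.6%) and the U3 locus novel_mir40 (25.6% and 25.8%). Those with the largest CV were novel_mir27 (152% and 173%), novel_mir228 (75.9% and 168%) and novel_mir1 (83.4% and 149%).

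Across the 50 rows, the Spearman correlation of levels was 0.59 to 0.66 between ET1 libraries, 0.61 to 0.85 between untreated libraries and 0.44 to 0.81 between libraries of different groups. The ranges for pairs of the same group and of different groups overlapped. ET1 library 3 had the highest level of the 6 libraries in 21 of the 50 rows, and untreated library 2 the lowest in 16. The number of rows at 10 RPM or more was 17, 20 and 30 in ET1 libraries and 26, 18 and 19 in untreated libraries.

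**Figure D4:**
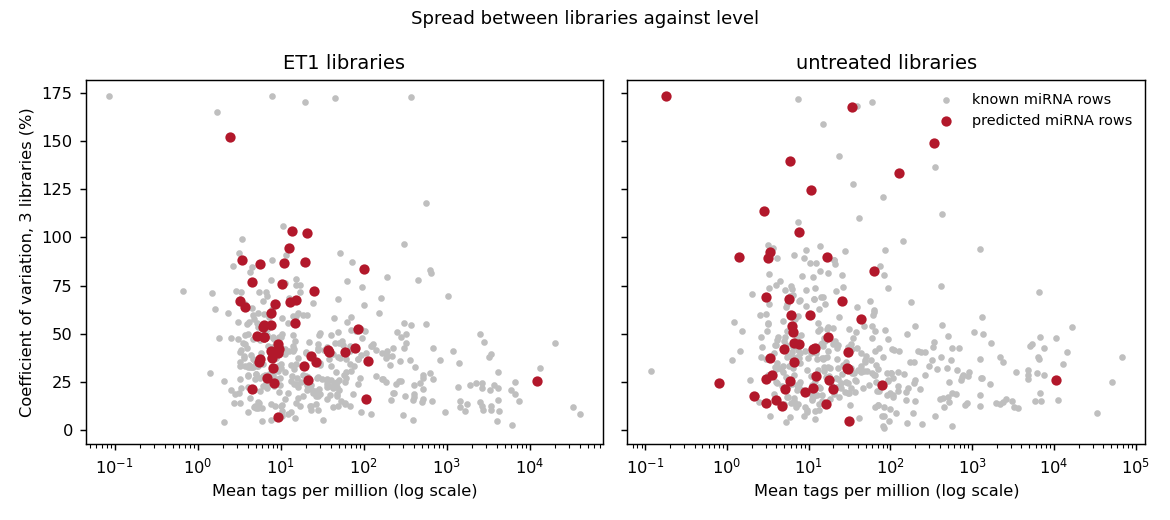
Coefficient of variation over 3 libraries (y axis, percent) against mean level (x axis, log scale, RPM) for the 50 predicted rows (red) and 399 known miRNA rows (grey), in ET1 libraries on the left and untreated libraries on the right. The median of the red points is 48.4% and 42.4%, and that of the grey points 33.4% and 35.1%.

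None of the 50 rows passed the test of ET1 against untreated. Over the whole table, edgeR's quasi-likelihood test was run on 3193 rows, all 50 predicted rows among them, and none was called at an adjusted p under 0.05 (0% of the rows). At an unadjusted p under 0.05 there were 333 rows (10.4%), and 9 of the 50, of which 6 were higher and 3 lower in ET1 libraries. The rows in each direction made up 5.07% (higher) and 5.36% (lower) of all rows tested. The split among the 50 varied with the setting. The share of all rows tested that had such a p, in either direction, is given in brackets for each setting. With miRNA rows only, where 49 of the 50 were tested, it was 13 higher and 3 lower (17.6%). Leaving out ET1 library 1, 2 or 3 gave 12 and 1 (11.6%), 2 and 3 (8.65%) and 2 and 4 (8.58%) in turn. Leaving out untreated library 1, 2 or 3 gave 10 and 3 (8.06%), 3 and 2 (6.24%) and 1 and 3 (10.8%) in turn. The median log2 fold change was 0.19 over the 50 rows and 0.12 over all rows. By library size alone these medians were 0.34 and 0.33. The median of the predicted rows was -0.079 without ET1 library 2, -0.053 with known miRNAs left out, -0.024 with no filter, 0.61 with miRNA rows only and 0.74 without untreated library 1, so its sign depends on the setting. DESeq2 called 163 rows (5.1%), among them 3 of the 50, novel_mir93, novel_mir206 and novel_mir226. Whether each library had its own culture or animal is not in the labels. The p-values therefore rest on the spread among these 6 libraries, and that spread may be technical.

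By RPM, 14 of the 50 rows had groups without overlap, 10 of them higher and 4 lower in ET1 libraries. Over all tested rows the groups did not overlap in 18.8%, with 11.8% higher and 6.98% lower in ET1 libraries. The choice of rows used the same counts, and 10 of the 50 rows reached 100 tags in ET1 libraries only and 1, novel_mir144, in untreated libraries only. A total of 39 reached it in both groups, and 16 in all 6 libraries. The 10 rows in ET1 libraries only included novel_mir14, novel_mir54, novel_mir56, novel_mir97, novel_mir100, novel_mir155 and novel_mir218, which were higher there without overlap. They and novel_mir144, which was lower without overlap, were thus taken only through the group where they are high. The share of rows without overlap is therefore no result about the 50 rows.

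**Figure D5:**
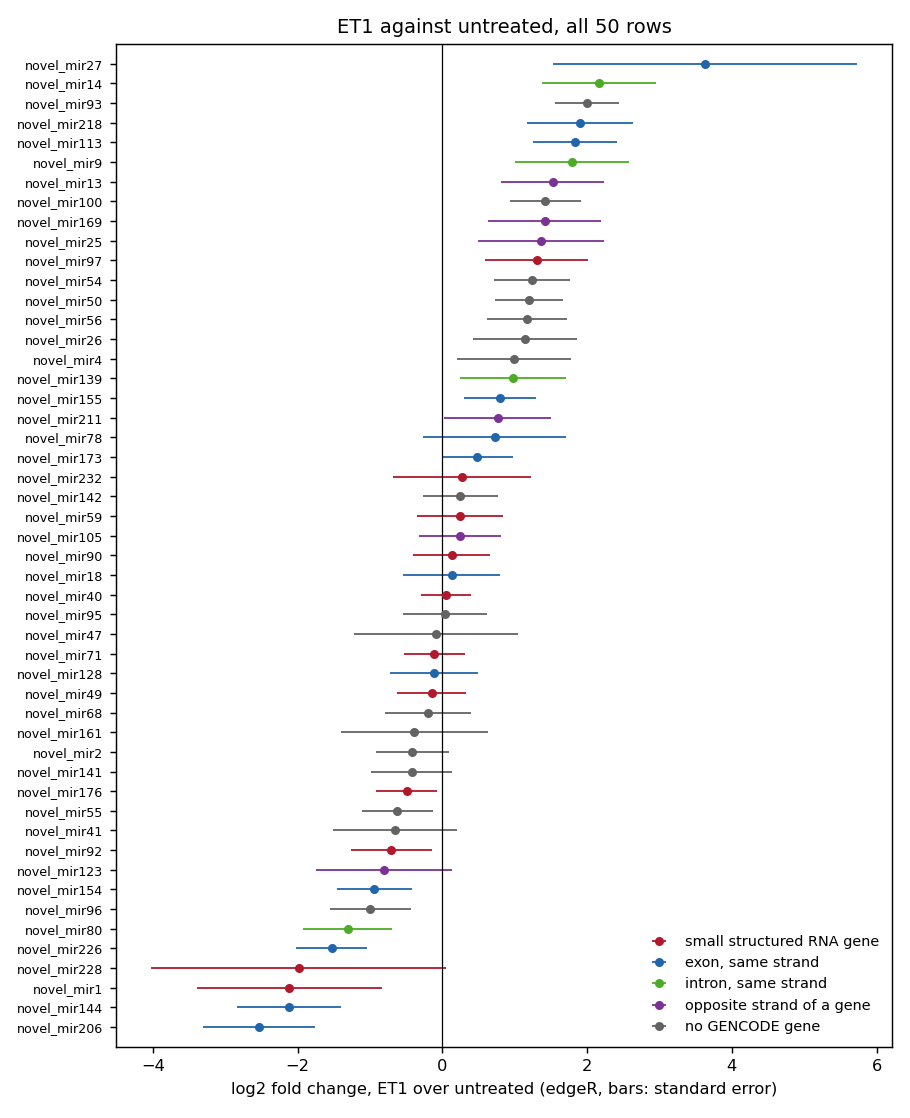
Log2 fold change of ET1 over untreated (points, edgeR, TMM scaling over the whole table) with its standard error (bars) for all 50 predicted rows, coloured by genome context. The U3 locus novel_mir40 lies at 0.050, and no row passed an adjusted p under 0.05. Values near 0 change sign with the scaling.

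The U3 locus novel_mir40 had a log2 fold change of 0.050 (SE 0.35, edgeR adjusted p = 0.98). Its sign followed the scaling, with -0.12 when known miRNAs were left out of the fit, 0.18 by library size alone and 0.47 when only miRNA rows were fitted. With 1 library left out it ran from -0.42 to 0.24. Of the other loci in small structured RNA genes, novel_mir97 in Snora81, an H/ACA snoRNA in an intron of Eif4a2, was the only one whose groups did not overlap. It stood at 5.02, 9.53 and 9.44 RPM in ET1 libraries and at 3.59, 0.685 and 4.69 in untreated libraries (log2 fold change 1.30, SE 0.71, edgeR adjusted p = 0.61). It was named after its values were seen, and it reached 100 tags in ET1 libraries only. The Rfam row of SNORA81 stood at 0.552, 0.309 and 0.667 RPM in ET1 libraries and at 0.431, 0.264 and 0.386 in untreated libraries, with overlap. Over the 11 loci of this class 5 log2 fold changes were positive and 6 negative, with a median of -0.11, or 0.14 by library size alone and -0.51 to 0.10 with 1 library left out.

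Of the rows that lay higher in ET1 libraries, novel_mir93 had the lowest p. Its locus (chr11:109343222-109343303, minus strand) lay outside every GENCODE gene, 19568 bases from the start of Gna13. It stood at 15.6, 21.4 and 26.6 RPM in ET1 libraries, against 5.03, 4.01 and 5.02 in untreated libraries. All 3 ET1 libraries were higher than any untreated library. The log2 fold change was 2.0 (SE 0.44, edgeR adjusted p = 0.26). In DESeq2 it was 1.96 with an adjusted p of 0.00020, and the adjusted p ran from 0.00020 to 0.68 over 13 alternatives.

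The row novel_mir113 (chr5:29569393-29569469, plus strand) lay in the 5′ UTR of Ube3c, a ubiquitin ligase gene, 189 bases from its start. It stood at 93.3, 98.3 and 125 RPM in ET1 libraries, against 44.5, 10.4 and 22.4 in untreated libraries. The groups did not overlap, and the log2 fold change was 1.83 (SE 0.58, edgeR adjusted p = 0.33), and 2.56 without untreated library 1. The row novel_mir100 (chr17:83998120-83998195, minus strand), outside every gene, stood at 5.68, 8.14 and 13.6 RPM in ET1 libraries, against 3.45, 2.64 and 2.85 in untreated libraries (log2 fold change 1.42, SE 0.49, edgeR adjusted p = 0.36). The row novel_mir50 (chr12:7897481-7897550, minus strand), also outside every gene, stood at 52.1, 65.5 and 115 RPM in ET1 libraries, against 19.7, 38.5 and 30.1 in untreated libraries (log2 fold change 1.20, SE 0.48, edgeR adjusted p = 0.43). None of these passed in edgeR or DESeq2, and novel_mir100 reached 100 tags in ET1 libraries only.

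Of the rows that lay lower in ET1 libraries, novel_mir206 had the lowest p. Its locus (chr17:39844370-39844431, plus strand) lay in an exon of Gm26917, a long noncoding RNA model next to an annotated ribosomal RNA gene. It is shown because it had the largest negative log2 fold change of the 50, with no letters marked.
novel_mir206: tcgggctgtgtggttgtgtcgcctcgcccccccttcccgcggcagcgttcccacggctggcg
The row novel_mir206 stood at 9.49, 6.70 and 22.9 RPM in ET1 libraries, against 25.9, 122 and 40.4 in untreated libraries. The groups did not overlap, while rRNA fragments as a whole took a larger share of every ET1 library than of any untreated library. The log2 fold change was -2.54 (SE 0.77, edgeR adjusted p = 0.32). It passed in DESeq2 (adjusted p = 0.016) and in edgeR with no filter on low counts (adjusted p = 0.0014), within a range of 0.0014 to 0.71 over 13 alternatives. Its log2 fold change ran from -3.19 without ET1 library 3 to -1.596 without untreated library 2.

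The row novel_mir144 stood at 4.80, 4.02 and 0.769 RPM in ET1 libraries, against 10.2, 16.1 and 10.1 in untreated libraries (log2 fold change -2.12, SE 0.72, edgeR adjusted p = 0.36). Its tags cannot be assigned to a single locus, and it reached 100 tags in untreated libraries only. The row novel_mir226 (chr7:28378500-28378550, minus strand) lay in a 5′ UTR exon of a shorter Zfp36 model, the gene of an mRNA-destabilising protein. It stood at 3.75, 4.12 and 5.54 RPM in ET1 libraries, against 8.33, 16.5 and 8.50 in untreated libraries. The log2 fold change was -1.53 (SE 0.49, edgeR adjusted p = 0.33), and in DESeq2 the adjusted p was 0.039, the lowest of a range up to 0.78 over 13 alternatives. In both rows all ET1 libraries were below all untreated libraries.

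By context, the 12 rows in same-strand exons had a median log2 fold change of 0.31, 7 of them positive and 5 negative. The 17 rows outside genes had 9 and 8 with a median of 0.039, the 6 rows opposite a gene 5 and 1 with a median of 1.06, and the 4 intronic rows 3 and 1 with a median of 1.39. Over all 3193 rows tested, 55.0% were positive, with a median of 0.12. Of the 180 predicted rows under the threshold, 79 lay within 1000 bases of the start of a protein-coding gene. Of the 50 loci 14 did, near genes such as Hdac1, Klf4, Itsn1 and Ube3c. Their log2 fold changes were positive in 10 and negative in 4, with a median of 0.64, against 19 and 17 with a median of 0.045 for the 36 loci farther away. With 1 library left out these medians ran from 0.28 (without ET1 library 3) to 1.36 (without untreated library 1) and from -0.37 (without ET1 library 2) to 0.28 (without untreated library 1). The median ran from -0.34 (without ET1 library 2) to 0.64 (without untreated library 1) in exons, from -0.034 (without untreated library 3) to 0.99 (without untreated library 1) outside genes, from 0.26 (without ET1 library 3) to 1.39 (without ET1 library 1) opposite a gene and from 0.19 (without ET1 library 3) to 1.77 (without ET1 library 1) in introns. The context groups were drawn after earlier results were known, and none of these differences was tested.

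The rows just inside the threshold had highest counts of 122 (novel_mir95), 132 (novel_mir142) and 133 (novel_mir54 and novel_mir27) tags. The first rows outside it were novel_mir88, novel_mir208 and novel_mir204, with highest counts of 97, 96 and 92. The row novel_mir95 stood at 3.26, 1.597 and 6.26 RPM in ET1 libraries and at 3.45, 3.43 and 2.08 in untreated libraries, and novel_mir142 at 7.28, 2.37 and 5.69 RPM in ET1 libraries and at 3.64, 4.48 and 2.46 in untreated libraries. Both lay outside every gene and had overlapping groups. The row novel_mir54, also outside every gene, stood at 3.20, 6.70 and 6.82 RPM in ET1 libraries, against 1.82, 2.53 and 1.98 in untreated libraries, without overlap (log2 fold change 1.24, SE 0.53, edgeR adjusted p = 0.48). The row novel_mir27 (chr17:24471004-24471068, plus strand), in the coding sequence of the phosphatase gene Pgp, was counted 0, 12 and 133 times in ET1 libraries and 0, 0 and 11 times in untreated libraries. A single ET1 library carried it over the threshold, and its counts of 0 allow up to 0.165 RPM in ET1 library 1 and 0.144 and 0.158 RPM in untreated libraries 1 and 2. Its log2 fold change was 3.63 (SE 2.10, edgeR adjusted p = 0.63), and 0.96 without ET1 library 3. Without untreated library 3 the untreated counts were all 0 and the fitted value was 8.36, which depends on the prior count and is no bound. Without untreated libraries 1 or 2 it was 2.99 in both cases. The row novel_mir14 (chr5:137531454-137531494, minus strand), in an intron shared by models of Gnb2 and Epo, stood at 5.63, 4.33 and 13.0 RPM in ET1 libraries, against 2.87, 0.685 and 0.676 in untreated libraries (log2 fold change 2.17, SE 0.79, edgeR adjusted p = 0.39). The log2 fold change was 3.26 without untreated library 1 and 1.598 without ET1 library 3. The groups did not overlap for novel_mir14 and did for novel_mir27. The rows novel_mir95, novel_mir142, novel_mir54, novel_mir27 and novel_mir14 reached 100 tags in ET1 libraries only.

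The authors' deposited table, which compares counts summed over the libraries of each group, gave far more calls. In the authors' deposited table, q-values were low for most rows: 47 of the 50 had a q-value under 0.05, 39 of them higher and 8 lower in ET1, where 70.2% of all rows with a q-value passed (51.2% higher and 19% lower). The log2 ratio of the summed counts minus the log2 ratio in the authors' deposited table was -0.70 in each of the 50 rows. For 12 of the 50 the sign in the authors' deposited table was the opposite of that of the count ratio. For novel_mir40 the authors' deposited table gave a log2 ratio of 0.80 from 691860 tags in ET1 and 643253 in untreated libraries. The highest ratios in the authors' deposited table were 4.42 for novel_mir27, 3.03 for novel_mir14 and 2.79 for novel_mir93, and the lowest -1.61 for novel_mir206, -1.32 for novel_mir144 and -1.24 for novel_mir1. Summing the counts leaves out how far libraries of a group differ, which for novel_mir1 ran from 699 to 19640 tags among the untreated libraries.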

How the data were processed

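Small RNAs of primary peritubular myoid cells were counted in 3 ET1 and 3 untreated libraries. Per the file headers, the authors deposited tag counts per row and a value headed TPM, which from the values was an RPM, the count per 1000000 tags of all rows without a length correction (ratio of the computed to the deposited value 0.998 to 1.003 for counts of at least 50). Per the submitters' processing notes, Bowtie2 and mm10 were used. The predictor of new miRNAs and the handling of tags with several matches are not given in the sources used here. The deposited comparison table holds pooled counts, mean RPM, a log2 ratio and p-values and q-values, which are quoted as the authors' own.

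The count test was edgeR 4.0.16 (R 4.3.3): all rows except the 4 totals (exon, intron, intergenic, repeat, together 44.3% to 61.4% of a library's tags), the default expression filter, TMM scaling, a robust quasi-likelihood fit on group, and two-sided p-values adjusted over all 3193 rows by Benjamini-Hochberg (threshold 0.05). The SE is the log2 fold change divided by the square root of the F statistic. Levels are RPM of all tags. On simulated counts with 200 rows changed 4-fold among 3193 at a dispersion of 0.05, the fit recovered 100% with 5.21% false calls. At a dispersion set after the data were seen to the spread of the 50 rows (their median CV of 44.5%), it recovered 70.5% with 1.40% false calls. The changed rows were drawn from the upper part of all rows by level. Summed shares were to be tested by permutation but are given without a p, since the rows and lists were chosen with earlier results of these data known. Named rows followed a rule: the 10 with most tags, the 3 lowest p per direction where fewer passed, the extremes of CV and of the deposited ratio, rows at 0 in a library, and those nearest the threshold. Loci were compared with GENCODE M21 and RefSeq GRCm38.p6. The file does not say whether starts are counted from 0 or 1, and they are given as deposited. The sequence and position of novel_mir144 are not reported here. RNAfold 2.7.2 gave the folding energies. Alternatives were DESeq2 1.42.0, library size alone, other filters, rows and thresholds, a replicate block and leaving out each library. No library was a copy of another in its group (chi-square divided by its degrees of freedom 201 to 469).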

Additional observations from a re-analysis of the deposited data

How the results depend on the processing

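The count of 0 calls in edgeR among the 50 rows was also 0 in every edgeR alternative except the one with no filter, where it was 1 (novel_mir206), and it was 3 in DESeq2, which gave 4 of the 50 no adjusted p. Over the whole table the count of 0 became 163 of 3193 rows in DESeq2 (70 higher and 93 lower). With no filter it was 88 of 20691 rows (39 higher and 49 lower). It was 2 of 1028 rows with at least 10 CPM in 3 libraries and 2 of 738 with miRNA rows only. With 1 library left out it was 0 to 2, the 2 being of 3738 rows without untreated library 3. The fold of the first over the second row, 50.9, ran from 41.1 to 150 with 1 library left out, a comparison added after seeing the data. The number of rows meeting the threshold was 93 at 50 tags in place of 100, against 50. The summed share of all tags differed by 0.14 points, and by 0.82 points when the 4 totals were left out of the denominator.

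Of 21 rows named by the rule, 10 changed sign under some alternative, none of them with a call on either side. With no filter the log2 fold change was -0.11 for novel_mir40, -0.0036 for novel_mir105, -0.021 for novel_mir90 and -0.22 for novel_mir95. With known miRNAs left out it was -0.12, -0.053 and -0.18 for novel_mir40, novel_mir90 and novel_mir95. With miRNA rows only it was 0.11 for novel_mir161, 0.34 for novel_mir71 and 0.0016 for novel_mir176. For novel_mir71 it was 0.14 by library size alone and 0.11 with at least 10 CPM in 3 libraries, and for novel_mir95 it was -0.026 in DESeq2. With 1 library left out it ran from -0.42 to 0.24 for novel_mir40, -2.89 to 0.82 for novel_mir1, -0.94 to 1.87 for novel_mir161, -0.52 to 0.068 for novel_mir71, -0.13 to 0.87 for novel_mir105, -0.51 to 0.42 for novel_mir90, -2.61 to 3.02 for novel_mir228, -0.55 to 0.24 for novel_mir95 and -0.034 to 0.43 for novel_mir142. The cause was not tested.

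The deviations of libraries of the same number from their group means correlated at 0.14, -0.061 and 0.041. With 3 libraries per group these values cannot settle whether the numbers pair the libraries, which the labels do not say. With the replicate block no row was called, and the log2 fold change was -0.013 for novel_mir40, 0.60 for novel_mir161, 1.58 for novel_mir228 and -0.084 for novel_mir95. Counting error is small for the U3 locus, with 166254 to 301163 tags per library. Its CV over 3 libraries was still 25.6% in ET1 and 25.8% in untreated libraries. For the other rows the parts of counting error and of spread between libraries were not measured.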
